A study of Sus scrofa with 12 samples.

Results

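Granzymes and other genes of cytotoxic lymphocytes were examined in the ileal mucosa of pigs that differed in feed efficiency, the amount of growth obtained from a given amount of feed. The 10 genes were GZMA, GZMB, GZMH, GZMK and GZMM for granzymes, PRF1 and NKG7 for other granule proteins, KLRK1 and KLRD1 for lectin-like receptors, and EOMES for a transcription factor. They were chosen by symbol among 13538 named genes on the array, and they carried 19 probe sets, groups of probes that measure 1 transcript region. Of these, 16 probe sets of 9 genes passed a filter on dim signal that kept 12161 genes. The filter used the mean over all 12 arrays, so it did not depend on which group was high. Where a gene had several probe sets, the one with the highest mean was taken as its main probe set.

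Cytotoxic T cells and natural killer cells kill infected or damaged cells by releasing granules onto them. Perforin opens the membrane of the target cell and granzymes, a family of serine proteases, enter and cleave proteins there. The epithelium of the small intestine holds many intraepithelial lymphocytes, most of which are T cells with granules of this kind, and these roles are known mainly from human and mouse work.

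The tissue came from 12 pigs aged 140 days, with 1 array per pig: 6 of high feed efficiency (3 males and 3 females) and 6 of low feed efficiency (3 males and 3 females). No treatment is named, since the pigs differed in feed efficiency as a trait. Pigs are numbered 1 to 6 within each group, with males 1 to 3 and females 4 to 6, and the numbers pair no animals. Values are log2 intensities as deposited, so a difference of 1 is a doubling, and levels of different probe sets are not comparable with each other. In such bulk samples, fewer cells of a type and less RNA per cell cannot be told apart.

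The array of high feed efficiency pig 1, a male, stood apart from the others. Its median correlation with the other arrays was 0.899, against 0.930 to 0.962 for the rest, and its hybridization controls averaged 11.02, against 10.26 to 10.62. The difference of each main probe set that passed the filter is also given without this pig. The pigs' identifiers fall into the ranges 301 to 310, with 8 pigs of which 2 are female, and 317 to 324, with 4 females, so sex and identifier range overlap in part. Both ranges hold both feed efficiency groups. No pair of arrays shared more than 0.323% of its values.

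Markers of T cells were present. All 10 of the 13 listed T cell markers that the array names passed the filter, among them CD3E (mean log2 value 9.18) and CD8A (7.43). The 10 epithelial markers passed too, led by ANPEP at 12.25, and markers of B cells (5 of 7), plasma cells (4 of 6), macrophages (4 of 6), mast cells (3 of 6) and smooth muscle (4 of 5) were also measured. No marker on the array fell below the filter. HDC of mast cells (3.11) and MARCO of macrophages (3.43) were lowest. KLRD1 was the member below the filter. It encodes CD94, the partner of some NKG2 receptors on natural killer cells, though not of NKG2D. Its only probe set averaged 1.91 against a filter level of 2.67.

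No member differed between high and low feed efficiency after adjustment over all probe sets. Of the 9 genes tested, 4 were higher and 5 lower in high feed efficiency, with a median difference of -0.07, beside -0.01 over all genes tested. With limma and Benjamini-Hochberg adjustment, 0 of the 9 passed the threshold of 0.05, against 0% of the 33405 probe sets tested. At an unadjusted p under 0.05 there was 1 member, GZMM. The background rate was 3.17% of all probe sets and 2.19% of the main probe sets of all genes tested. The groups overlapped for every member, and 0.0928% of all probe sets had groups that did not overlap. The adjusted p was 0.999 for each of the 9.

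GZMA encodes granzyme A, a protease that cleaves after lysine or arginine. Its main probe set ranged from 5.86 to 8.95 in high feed efficiency, with a median of 7.88, and from 7.46 to 9.42 in low feed efficiency, with a median of 8.20. The lowest value was that of high pig 1 and the highest that of low pig 4, and the groups overlapped over most of their range. The means were 7.72 ± 1.097 at high and 8.32 ± 0.72 at low feed efficiency (mean ± SD over 6 pigs), a difference of -0.60 ± 0.46 (SE, limma unadjusted p = 0.215). Without high pig 1 the difference was -0.25. The other probe set of the gene that passed the filter differed by -0.26 ± 0.36, or -0.13 without that pig.

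GZMB encodes granzyme B, which cleaves after aspartate and activates caspases. It lay between 7.81 and 10.59 in high feed efficiency, with a median of 9.83, and between 8.74 and 10.998 in low feed efficiency, with a median of 10.17. Its lowest value again belonged to high pig 1, with low pig 2 next, and the groups overlapped. The difference was -0.44 ± 0.40 (SE, n = 6 per group, limma unadjusted p = 0.290), and -0.14 without high pig 1. A further probe set gave -0.28 ± 0.37 over all pigs but 0.0045 without high pig 1. The third, a dim one with a mean of 3.88 in either group, gave 0.00 ± 0.49, or -0.12 without that pig.

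GZMH encodes granzyme H, whose gene is the direct neighbour of GZMB in RefSeq (Sscrofa11.1). It ran from 5.63 to 6.99 in high feed efficiency, with a median of 6.80, and from 5.94 to 7.72 in low feed efficiency, with a median of 7.08. Its difference was -0.27 ± 0.29, within the spread between pigs. It was -0.11 without high pig 1 and -0.48 without low pig 5. Its other probe set gave 0.17 ± 0.22, or 0.09 without high pig 1. The main probe sets of GZMA, GZMB, GZMH, GZMK, GZMM, PRF1 and KLRK1 have names ending in _s. In Affymetrix naming this marks probes shared between similar transcripts. Signal from close relatives therefore cannot be told apart in these probe sets, and the gene table holds 2 entries for GZMA.

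GZMK encodes granzyme K, whose gene lies near GZMA with 1 gene between them in that table. Values were 5.93 to 6.72 in high feed efficiency (median 6.38) and 5.15 to 6.58 in low feed efficiency (median 6.47). Low pig 2 had the lowest value, more than 1 below the nearest in its group, 6.22. The difference of 0.09 ± 0.21 was small beside that spread, and it was 0.12 without high pig 1 and -0.10 without low pig 2.

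GZMM encodes granzyme M, known in humans from natural killer cells and some T cells. Its main probe set read 5.66, 5.59 and 5.73 in the males and 5.37, 5.62 and 5.39 in the females of high feed efficiency, against 5.44, 5.03 and 5.35 in the males and 5.06, 5.35 and 5.02 in the females of low feed efficiency. Within either sex, the 3 pigs of high feed efficiency lay above the 3 of low feed efficiency, while across sexes low pig 1 overlapped with high pigs 4 and 6. The means were 5.56 ± 0.15 at high and 5.21 ± 0.19 at low feed efficiency (mean ± SD over 6 pigs). The difference was 0.35 ± 0.11 (limma unadjusted p = 0.0079, adjusted p = 0.999), and the exact permutation p within sex was 0.005, the smallest that the 400 arrangements can give. It was 0.35 without high pig 1, and 0.37 and 0.32 within the identifier ranges 301 to 310 and 317 to 324. The GZMM difference was known when the genes were chosen, so it is no independent evidence.

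The second GZMM probe set had the opposite sign. It averaged 4.65 ± 0.27 at high and 4.92 ± 0.24 at low feed efficiency (mean ± SD over 6 pigs), a difference of -0.27 ± 0.15 (limma unadjusted p = 0.087). Over the 12 pigs the probe sets of GZMM correlated at r = -0.23 (permutation p = 0.456), and at 0.64 once the means of feed efficiency and sex had been removed. No direction can therefore be given for the gene as a whole. Both probe sets have names ending in _s.

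**Figure D1:**
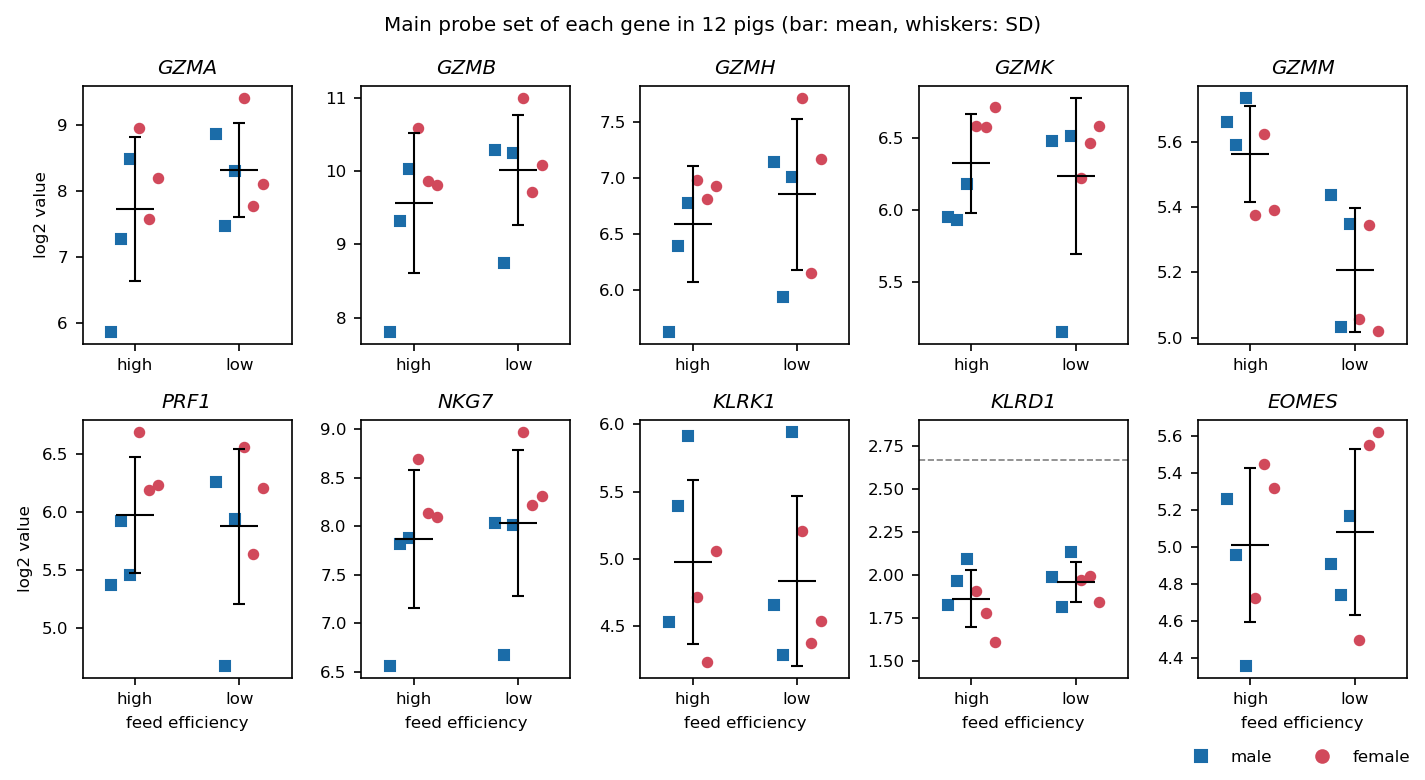
Log2 values of the main probe set of each of the 10 genes (vertical axes, each with its own range) in high and low feed efficiency, with 6 pigs per group, squares for males and circles for females, a bar for the mean and whiskers for the SD. The groups overlap in every panel, GZMM shows the clearest shift, high pig 1 is lowest for GZMA, GZMB, GZMH and NKG7, and the KLRD1 values all lie below the dashed line, the filter level of 2.67.

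PRF1 encodes perforin, the pore-forming protein of the granules. Its values were 5.38 to 6.69 in high feed efficiency (median 6.06) and 4.67 to 6.56 in low feed efficiency (median 6.07), and low pig 2 was lowest. The difference was 0.10 ± 0.26, and 0.16 without high pig 1. The second probe set gave -0.16 ± 0.17. NKG7 encodes a membrane protein of the granules that takes part in their release in mice. It ranged from 6.56 to 8.69 in high feed efficiency (median 7.99) and from 6.67 to 8.97 in low feed efficiency (median 8.13), with high pig 1 and low pig 2 far below the other pigs of their groups. The difference was -0.17 ± 0.29 over all pigs and 0.02 without high pig 1.

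KLRK1 encodes NKG2D, an activating receptor for stress-induced ligands on epithelial cells. Its values were 4.23 to 5.92 in high feed efficiency (median 4.89) and 4.29 to 5.94 in low feed efficiency (median 4.60). A male of each group, pig 3, was highest. The difference was 0.14 ± 0.31, and 0.29 without high pig 1. KLRD1 lies next to KLRK1 in the gene table. It read 1.61 to 2.09 in high and 1.81 to 2.13 in low feed efficiency, and such dim values carry little information on its level. EOMES encodes eomesodermin, a T-box factor of natural killer and memory T cells. It ran from 4.36 to 5.45 in high feed efficiency (median 5.11) and from 4.498 to 5.62 in low feed efficiency (median 5.04), a difference of -0.07 ± 0.23, and -0.16 without high pig 1.

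**Figure D2:**
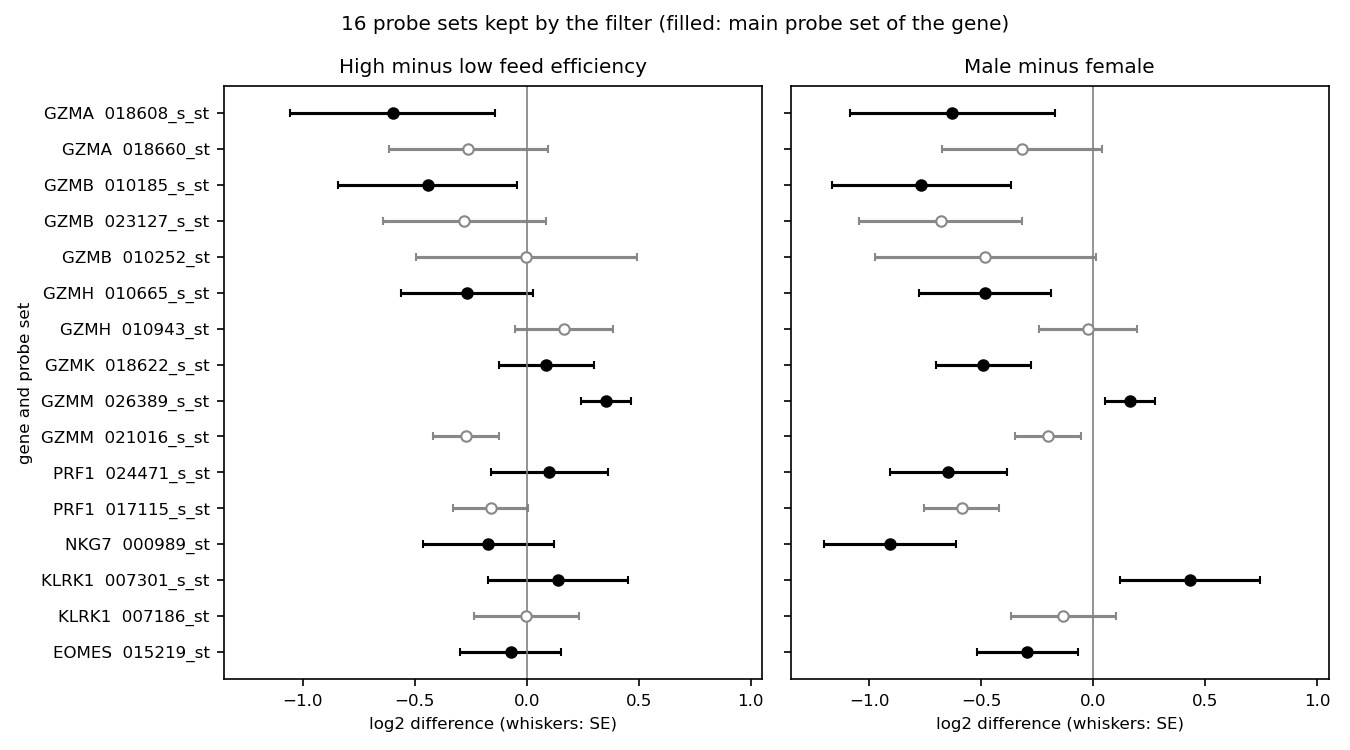
Log2 differences with SE (horizontal axes) of the 16 probe sets that passed the filter, high minus low feed efficiency on the left and male minus female on the right, with filled points for main probe sets and open points for the others. For feed efficiency 11 of 16 points lie below 0, beside 49.4% of all probe sets, and the probe sets of GZMM lie on opposite sides of 0. For sex 14 of 16 points lie below 0, beside 51% of all probe sets.

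The sexes were compared in the same fit. Of the 9 members tested, 7 had lower values in males and 2 had higher ones, with a median male minus female difference of -0.49, beside -0.03 over all genes tested. At an unadjusted p under 0.05, NKG7, PRF1 and GZMK were lower in males, 3 of 9, against a background of 9.17% of all probe sets called in that direction. Over the main probe sets of all genes tested, the nearer background for these 9, 20.2% were called in either direction. After adjustment 0 of the 9 passed, and the lowest adjusted p was 0.145 (limma). The share of all probe sets called after adjustment was 0.0329%, or 11 of 33405. With 1 pig left out, the number of all probe sets called ran from 5, without low pig 2 among others, to 417, without low pig 1. Without high pig 1, low pig 2 or high pig 4, 1 member was at an unadjusted p under 0.05, NKG7.

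NKG7 read 6.56, 7.82 and 7.88 in high feed efficiency males and 8.04, 6.67 and 8.02 in low feed efficiency males, against 8.69, 8.14 and 8.10 in high feed efficiency females and 8.97, 8.22 and 8.31 in low feed efficiency females. Every male lay below every female, and high pig 1 and low pig 2 lay far below the other 4 males. Among all probe sets, 0.934% had sexes that did not overlap with males lower. The means were 7.50 ± 0.69 in the 6 males and 8.41 ± 0.35 in the 6 females (mean ± SD). The difference was -0.91 ± 0.29 (limma unadjusted p = 0.0091, adjusted p = 0.145), with an exact permutation p of 0.005, the smallest possible. It was -0.72 without high pig 1 and -0.47 without high pig 1 and low pig 2, a pair left out after the values were seen. With each pig left out in turn, the unadjusted p of NKG7 stayed between 0.0068 and 0.0238 (limma).

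PRF1 averaged 5.61 ± 0.56 in the 6 males and 6.25 ± 0.37 in the 6 females (mean ± SD), a difference of -0.65 ± 0.26 (limma unadjusted p = 0.0284, adjusted p = 0.209). Its second probe set differed by -0.59 ± 0.17 (limma unadjusted p = 0.0042, adjusted p = 0.119), so both pointed the same way. The exact permutation p was 0.055 for the main and 0.015 for the second probe set. GZMK averaged 6.03 ± 0.50 in the 6 males and 6.52 ± 0.17 in the 6 females (mean ± SD), a difference of -0.49 ± 0.21 (limma unadjusted p = 0.0378, adjusted p = 0.233). Without high pig 1, PRF1 differed by -0.585 and GZMK by -0.46. Without high pig 1 and low pig 2 they differed by -0.36 and -0.25. In neither case had they an unadjusted p under 0.05.

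The other granzymes had wider spreads in males. GZMB averaged 9.41 ± 0.99 in the 6 males and 10.17 ± 0.51 in the 6 females (mean ± SD), a difference of -0.77 ± 0.40 (limma unadjusted p = 0.078). GZMA differed by -0.63 ± 0.46 and GZMH by -0.48 ± 0.29. Without high pig 1 the differences were -0.46 for GZMB, -0.285 for GZMA and -0.32 for GZMH. Without high pig 1 and low pig 2 they were -0.20 for GZMB, -0.11 for GZMA and -0.13 for GZMH. KLRK1 was on the other side, with 5.12 ± 0.73 in the 6 males and 4.69 ± 0.38 in the 6 females (mean ± SD) and a difference of 0.43 ± 0.31, but its second probe set gave -0.13 ± 0.23. The main probe set of KLRK1 differed by 0.58 without high pig 1, and without high pig 1 and low pig 2 by 0.79 (limma unadjusted p = 0.0206). GZMM differed by 0.16 ± 0.11, the same without high pig 1, and its second probe set by -0.20 ± 0.15.

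The identifier range 301 to 310 holds 6 males and 2 females. Male minus female differences within it were -1.33 for NKG7, -1.02 for PRF1, -1.48 for GZMA, -1.39 for GZMB and -0.37 for GZMK. They were -0.87 for GZMH, 0.25 for GZMM and 0.16 for KLRK1. The 2 females there, high pig 4 and low pig 4, had the highest values of all pigs for GZMA, GZMB, NKG7 and PRF1. The differences within this range therefore rest on these 2 females. The other range holds no male, so no difference can be had there. EOMES changed side, with -0.30 ± 0.23 over all pigs, -0.38 without high pig 1 and 0.29 within that range. Marker scores by sex are given beside these differences, and their part in them was not tested. For a score, the log2 values of each marker were centred on their mean over the arrays and then averaged over the list. The T cell score was -0.12 ± 0.29 in the 6 males and 0.12 ± 0.15 in the 6 females (mean ± SD, exact permutation p = 0.12). The plasma cell score was -0.28 ± 0.53 in the 6 males and 0.28 ± 0.19 in the 6 females (mean ± SD, exact permutation p = 0.04). The epithelial score was -0.18 ± 0.92 in the 6 males and 0.18 ± 0.42 in the 6 females (mean ± SD, exact permutation p = 0.455).

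Whether the feed efficiency difference itself differed between males and females was tested in a fit of the 4 group means. None of the 9 members had an unadjusted p under 0.05 in this limma test, against 2.76% of all probe sets, and the lowest was 0.397. The widest gap was that of GZMA, with -1.005 ± 0.65 in males and -0.19 ± 0.65 in females (SE, n = 3 per group and sex). The difference between these was -0.81 ± 0.92 (limma adjusted p = 0.9996), and without high pig 1 it was -0.14. GZMK had -0.23 ± 0.43 over all pigs, and -0.68 without low pig 2 (limma unadjusted p = 0.0145). With 3 pigs per group and sex, differences of this size could not be resolved.

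The members differed in how far they varied from pig to pig. GZMA had an SD of 0.94 over the 12 pigs and GZMB one of 0.85, above 98.3% and 97.4% of all genes tested, whose median SD was 0.298. NKG7, with an SD of 0.70, stood above 94.5% of genes and KLRK1, with 0.60, above 90.4%. GZMH (0.59) and PRF1 (0.57) followed, above 89.9% and 88.7%, then GZMK above 77.3% and EOMES above 73.8%. GZMM was the steadiest, with an SD of 0.25 above 34.7% of genes. These places are descriptions of the 12 arrays, and high pig 1 adds to the spread of GZMA, GZMB and NKG7.

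A block of granule genes varied together across pigs. Of 36 pairs among the 9 members, 11 passed a permutation test of Pearson's r and 10 one of Spearman's rho after Benjamini-Hochberg adjustment over the pairs. Where r and rho stand together with p-values, these belong to r. GZMA, GZMB, GZMH, PRF1 and NKG7, a set named after the values were seen, made 10 pairs with r between 0.62 and 0.95 and a median of 0.86, and 9 of these passed. GZMA and GZMB were the closest pair, with r = 0.950 and rho = 0.930 (permutation p = 1e-05, the smallest that 100000 draws can give, adjusted p = 0.00036). Their r was 0.839 without high pig 1 and low pig 4, the pigs farthest from the GZMA median, and 0.973 within the identifier range 301 to 310.

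Over those 10 pairs r lay between 0.60 and 0.90 without high pig 1, and it lay between 0.53 and 0.84 without the 2 pigs farthest from the median. Within the identifier range 301 to 310 it lay between 0.66 and 0.97. GZMB with NKG7 had r = 0.932 (rho = 0.727, adjusted p = 0.00036) and PRF1 with NKG7 had r = 0.859 (rho = 0.790, adjusted p = 0.0017). Apart from that of NKG7, the main probe sets of this block have names ending in _s, and the part of shared probes in r was not tested. Large values of r were common on these arrays. GZMB reached an r over 0.7 with 13.4% of the 12152 other genes tested, NKG7 with 13.3%, GZMA with 11.9%, GZMH with 10.5% and PRF1 with 9.003%.

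GZMK went with PRF1 at r = 0.791 (rho = 0.713, permutation p = 0.0037, adjusted p = 0.0150) and with NKG7 at r = 0.716 (rho = 0.650, permutation p = 0.0145, adjusted p = 0.0476). Without low pig 2 and high pig 2, the pigs farthest from the GZMK median, they were 0.58 and 0.55. Without high pig 1 they were 0.78 and 0.75, and without it and low pig 2 they were 0.35 and 0.18. Both therefore rest in part on low pig 2. By rho, GZMK passed with PRF1 (permutation test, adjusted p = 0.0468) and did not with NKG7 (adjusted p = 0.0788). On the values as measured, the remaining members stood outside the block. KLRK1 had r between 0.11 and 0.35 with the 5 genes, GZMM between -0.37 and -0.06, and EOMES between -0.44 and 0.06, and none of these passed. Once the means of feed efficiency and sex had been removed, KLRK1 had r between 0.44 and 0.73 with them. For GZMM it then lay between -0.0003 and 0.28, and for EOMES between -0.75 and -0.21. These later values were not tested.

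**Figure D3:**
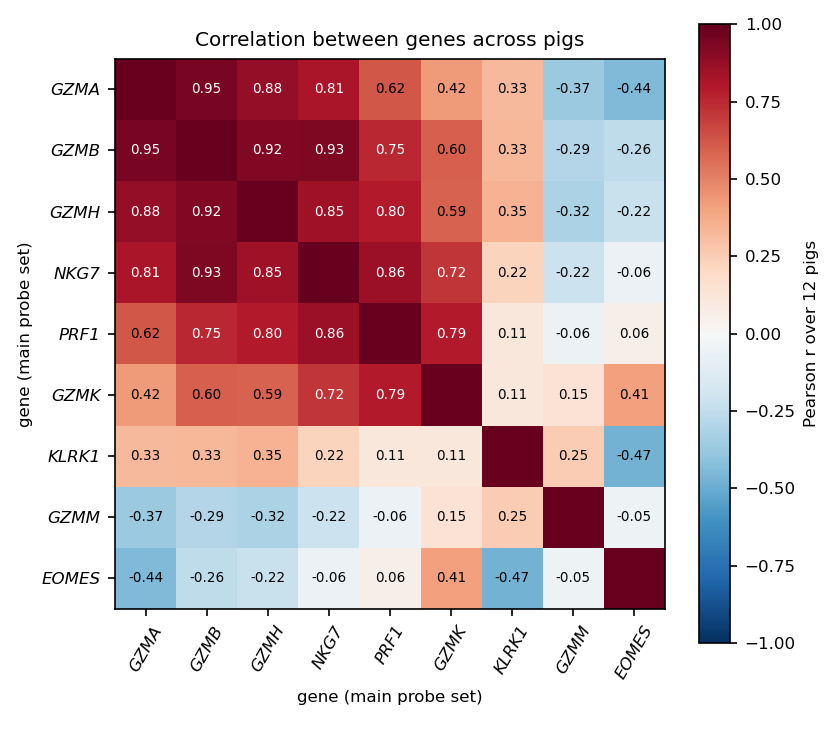
Pearson's r over 12 pigs between the main probe sets of the 9 genes that passed the filter, with genes on both axes and the colour scale from -1 to 1. GZMA, GZMB, GZMH, NKG7 and PRF1 form the red block at the upper left, where r runs from 0.62 to 0.95, GZMK joins it in part, and KLRK1, GZMM and EOMES stay outside.

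Probe sets of the same gene did not always agree. The brighter probe sets of GZMB correlated at r = 0.989, those of GZMA at 0.864 and those of PRF1 at 0.796. The dim GZMB probe set had r = -0.02 with the main one. For GZMH r was 0.283, or 0.634 without high pig 1, and for KLRK1 it was 0.547.

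The granule genes also moved with marker scores of other cells, in 72 relations between 9 members and 8 lists, of which 16 passed by Pearson's r and 6 by Spearman's rho after adjustment. GZMA followed the epithelial score at r = 0.956 (rho = 0.965, permutation p = 1e-05, adjusted p = 0.00036), and r was 0.899 without high pig 1 and low pig 4. GZMB followed it at r = 0.909 (rho = 0.888, permutation p = 0.00013, adjusted p = 0.0016), with 0.884 without high pig 1 and low pig 2. Without high pig 1 alone the values of r were 0.930 for GZMA and 0.793 for GZMB. Within the identifier range 301 to 310 they were 0.957 for GZMA and 0.93 for GZMB. The epithelial score ran from -1.90 to 0.55 in high and from -0.11 to 0.83 in low feed efficiency (exact permutation p = 0.265). High pig 1 had the lowest score and low pig 4 the highest, the same pigs that were lowest and highest for GZMA and GZMB.

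For PRF1, r with the epithelial score was 0.455 (permutation p = 0.137, adjusted p = 0.224) and rho was 0.643 (permutation p = 0.0281, adjusted p = 0.1135). With the T cell score r was 0.778 (permutation p = 0.0035, adjusted p = 0.0211). Its rho there was 0.720 (permutation test, adjusted p = 0.0698), so this relation passed by r alone. That r was 0.600 without low pig 2 and high pig 1 and 0.804 within the range 301 to 310. The difference between the epithelial and T cell values of PRF1 was not tested. GZMB had r = 0.640 with the T cell score (permutation p = 0.0288, adjusted p = 0.0966), and 0.931 without high pig 1. Its rho over all pigs was 0.818 (permutation p = 0.002, adjusted p = 0.0288), so this relation passed by rho alone. Over the 5 granule genes the median r was 0.667 with the T cell score and 0.792 with the epithelial score. Without high pig 1 these medians were 0.814 and 0.684, and the gap was not tested. The T cell score ran from -0.37 to 0.30 in high and from -0.57 to 0.27 in low feed efficiency (exact permutation p = 0.74), with low pig 2 lowest. GZMK had r = 0.782 with it (permutation p = 0.0051, adjusted p = 0.0260), but its rho of 0.531 did not pass (permutation test, adjusted p = 0.172). Without high pig 1 this r was 0.802. It was 0.540 without high pig 1 and low pig 2, and 0.175 without low pig 2 and high pig 2, the pigs farthest from the GZMK median, so it rests in part on low pig 2.

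A short list of markers shared by innate and gamma delta lymphocytes (SOX13, IL7R, KIT and ID2) had r between 0.77 and 0.96 with the 5 granule genes. All 5 passed by Pearson's r and 3 by Spearman's rho, and r lay between 0.50 and 0.91 without the 2 pigs farthest from the median. The mast cell list (KIT, FCER1A and HDC) had r between 0.69 and 0.91 with them, and KIT is in both lists. Of these 5 relations 4 passed by Pearson's r and 0 by Spearman's rho, and r lay between 0.42 and 0.66 without the 2 farthest pigs. With the B cell score the 5 genes had r between -0.62 and -0.31, and none passed. EOMES had r = 0.685 with the B cell score (permutation p = 0.0072, adjusted p = 0.0324), or 0.392 without high pig 3 and low pig 4. Its rho of 0.587 did not pass (permutation test, adjusted p = 0.135). The part that the mix of cells plays in these relations was not tested.

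**Figure D4:**
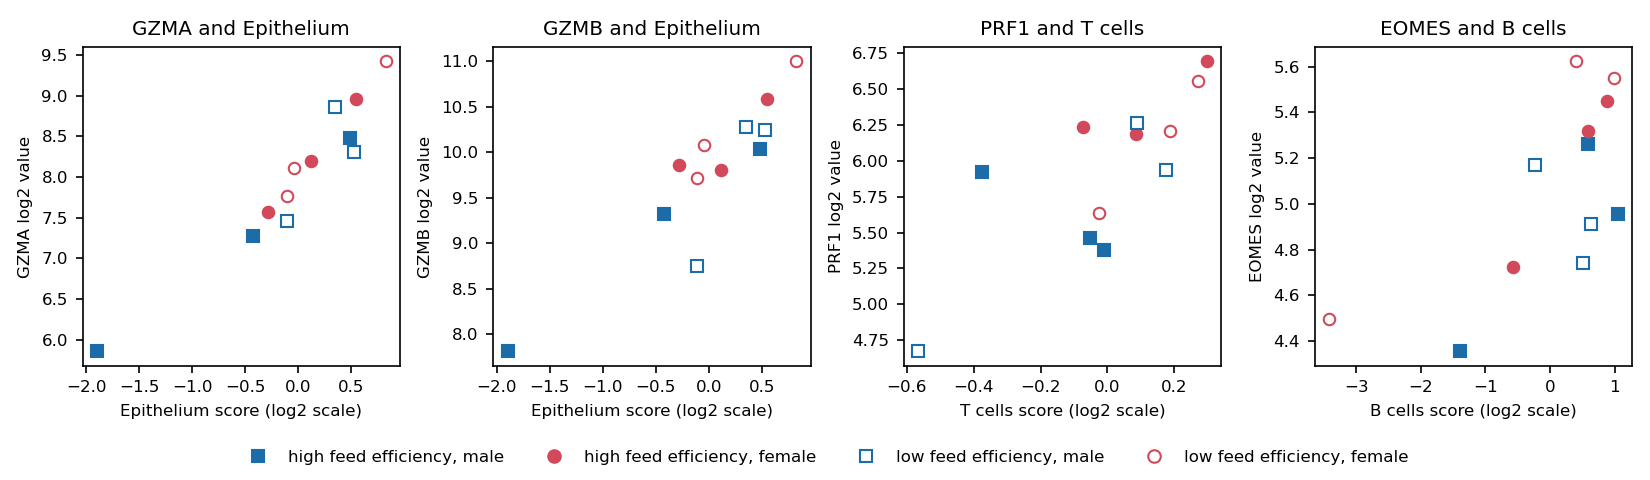
Log2 values (vertical axes) of GZMA and GZMB against the epithelial score, of PRF1 against the T cell score and of EOMES against the B cell score (horizontal axes, log2 scale), 1 point per pig, filled for high and open for low feed efficiency, squares for males and circles for females. High pig 1 is at the lower left for both granzymes, low pig 2 at the lower left for PRF1, and low pig 4 at the far left for EOMES.

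Other genes with the most similar pattern over the 12 pigs are given as descriptions without a test. Symbols that start with LOC or ENSS were left out of this ranking. For GZMA they were P4HB (r = 0.984), FCGRT (0.979) and SPINT1 (0.978), and for GZMB they were TRIM14 (0.991), TCN2 (0.979) and SORD (0.979). GZMH was closest to LTBR (0.958), SLC22A23 (0.948) and SOX13 (0.935), and NKG7 to LEPROT (0.982), LRRC41 (0.981) and ACTN4 (0.970). PRF1 went with GRN (0.960), TYROBP (0.946) and ACOT8 (0.943). All of these kept an r of at least 0.90 without high pig 1.

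GZMK was closest to CST3 (0.974), BNIP1 (0.932) and STRN4 (0.932), and EOMES to UBTF (0.944), RPL4 (0.922) and EIF3D (0.911). KLRK1 was closest to RECK (0.905), MYCT1 (0.872) and PLA2R1 (0.867). GZMM had the least similar neighbours, OPCML (0.892), FBXO9 (0.872) and SPAG7 (0.796). No gene appeared in the lists of more than 1 member.

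Genes that act with the granzymes were followed in 7 lists with 123 distinct genes tested. By feed efficiency 0 of them passed after adjustment (limma), and TNFSF10, FAS and IFNGR2 were the 3 with an unadjusted p under 0.05, or 2.44%, beside 2.19% of all genes tested. TNFSF10, the death ligand TRAIL, averaged 8.66 ± 0.28 at high and 9.26 ± 0.24 at low feed efficiency (mean ± SD over 6 pigs), a difference of -0.60 ± 0.15 (limma unadjusted p = 0.0019). The death receptor FAS averaged 7.02 ± 0.07 at high and 7.32 ± 0.10 at low feed efficiency (mean ± SD over 6 pigs), a difference of -0.30 ± 0.09 (limma unadjusted p = 0.0063). Both probe sets of either gene had the same sign. IFNGR2, a chain of the interferon gamma receptor, was dim and variable, with 3.83 ± 0.61 at high and 2.68 ± 1.27 at low feed efficiency and a difference of 1.15 ± 0.51 (limma unadjusted p = 0.0441). The adjusted p was 0.999 for all 3.

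By list, the counts higher and lower in high feed efficiency were 5 and 7 of 12 genes of granule loading and release (median -0.09) and 3 and 8 of 11 granule inhibitors and death substrates (median -0.05). They were 7 and 10 of 17 killer cell receptors and adapters (median -0.04) and 4 and 8 of 12 ligands (median -0.16). For transcription factors they were 12 and 9 of 21 (median 0.01), for the T cell receptor complex 7 and 12 of 19 (median -0.03), and for homing and cytokines 12 and 19 of 31 (median -0.04). No list's median lay further than 0.16 from 0.

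By sex, 29 of the 123 genes, or 23.6%, had an unadjusted p under 0.05, beside 20.2% of all genes tested in either direction, and 0 passed after adjustment (limma). Among the genes of smallest p, some adapters of killer receptors had lower means in males and none passed. TYROBP, or DAP12, averaged 7.86 ± 0.79 in the 6 males and 8.89 ± 0.21 in the 6 females (mean ± SD), a difference of -1.03 ± 0.31 (limma adjusted p = 0.129). FCER1G, the Fc receptor gamma chain, differed by -0.84 ± 0.22 (limma adjusted p = 0.107) and HCST, or DAP10, the adapter of NKG2D, by -0.44 ± 0.15 (limma adjusted p = 0.158). Others of that list had higher means in males, such as the adapter SH2D1A with a difference of 0.50 ± 0.32.

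The chemokine CXCL16 and its receptor CXCR6, which guide T cells in mucosa, also had lower means in males, with differences of -1.04 ± 0.28 and -1.001 ± 0.28 (limma adjusted p of 0.112 and 0.118). GSDMD, a pore-forming gasdermin, differed by -0.76 ± 0.19 (limma adjusted p = 0.102) and the transcription factor PRDM1 by -0.38 ± 0.12 (limma adjusted p = 0.127). PTPRC, the leukocyte antigen CD45, was on the other side, with 9.55 ± 0.53 in the 6 males and 8.72 ± 0.35 in the 6 females (mean ± SD) and a difference of 0.83 ± 0.24 (limma adjusted p = 0.120). LYST, a regulator of granule size, and SET, a protein cleaved by granzyme A, had higher means in males, both by 0.53 (limma adjusted p of 0.153 and 0.150).

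Counts higher and lower in males were 2 and 17 of 19 for the T cell receptor complex (median -0.17), 7 and 24 of 31 for homing and cytokines (median -0.21), and 1 and 11 of 12 for ligands (median -0.16). They were 6 and 11 of 17 for killer cell receptors and adapters (median -0.11), 3 and 8 of 11 for inhibitors and substrates (median -0.26), 4 and 8 of 12 for granule loading (median -0.03), and 8 and 13 of 21 for transcription factors (median -0.15). Over all genes tested, 55.7% were lower in males. These counts describe genes that vary together and carry no test.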

How the data were processed

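RNA from the ileal mucosa of 12 pigs was measured on 1-colour Affymetrix arrays for the pig (probe sets named Snowball). The labels' protocols give extraction with Qiazol, DNase treatment, column purification, transcription and biotin labelling, and the submitters' processing notes name GCOS 1.1.1. The deposited table holds log2 values from 0.301 to 14.24. That scale was read from the values. How background was corrected, probes summarized and arrays normalized is not given in the sources used, and the columns have nearly the same distribution, so no normalization was added.

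Of 47845 probe sets, 123 controls and the 30% of lowest mean over 12 arrays (under 2.67) were left out, which kept 33405. The platform annotation gives 1 symbol to 26426 probe sets, several to 0 and none to 21419. RefSeq's table for Sscrofa11.1 served for names and gene order alone: 25851 symbols were current, 446 were renamed and 129 matched no entry.

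A model with terms for feed efficiency and sex was fitted in R 4.3.3 with lmFit and eBayes of limma 3.58.1, and p-values were Benjamini-Hochberg adjusted over the 33405 probe sets (threshold 0.05). Exact permutation tests were two-sided, over 400 arrangements within sex or within group. Correlations used two-sided permutation tests with 100000 draws (Python 3.11.15, scipy 1.17.1). The code was tested on simulated data. Each array belongs to a separate animal, and the number of arrays limits the precision.

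The text names all members with their probe sets and up to 12 list genes of smallest unadjusted p under 0.05. It also names the 3 most similar genes per member, apart from symbols that start with LOC or ENSS. Members, lists and tests were chosen with earlier results of these data known. Alternatives were other filters, normalizations, variance models, array weights and model terms, single sexes, single identifier ranges, 1 probe set per gene and each pig left out. No sequences of these genes were used here.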

Additional observations from a re-analysis of the deposited data

Results flagged for a closer look

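GZMK in low feed efficiency pig 2, a male, had a log2 value of 5.15, and the nearest pig of its group had 6.22. The gap was 0.748 of the range of the 6 pigs, above Dixon's critical value for 6 values. Of 20 groups tested (10 genes in 2 feed efficiency groups) 1 stood out in this way, and chance alone gives about 1 in 20. The same pig had the lowest PRF1 value of all pigs (4.67) and the lowest T cell score (-0.57). Its array correlated with the others at a median of 0.944, within the range of the other arrays. With this pig left out, the GZMK feed efficiency difference was -0.10 and its male minus female difference -0.30.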

How the results depend on the processing

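No paired analysis was possible because pig numbers were given in order and pair no animals. Dim signal limits KLRD1 and 1 probe set each of GZMA and KLRK1, all below the filter. The median shift in mean level over probe sets was 1e-04 under quantile normalization and -0.0011 under median centring. Both keep the overall level by design, so these values are no check on the differences. Feed efficiency calls stayed at 0 except 1 in females alone, and GZMM was the member at an unadjusted p under 0.05 except in males or females alone, where there were 0. Leaving out 1 pig gave GZMM 0.30 to 0.40. The 11 sex calls became 0 with 1 probe set per gene, 4 with the stricter filter, in range 301 to 310 alone or without high pig 1 and low pig 2, 6 with a range term, and 7 without a filter or with a trended robust variance. They were 5 to 417 with 1 pig left out, the highest without low pig 1, and the cause was not tested. Members at an unadjusted p under 0.05 by sex were 1 to 4 with 1 pig left out. For the difference between the sexes this count was 1, GZMK, without high pig 1 and low pig 2, and 0 to 1 with 1 pig left out, as was its number of calls. The median r over 36 pairs was 0.330, and 0.119 without those pigs. PRF1 by sex had an exact permutation p of 0.055.

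Signs turned for small values. By feed efficiency GZMK was -0.0261 and PRF1 -0.0378 in males, KLRK1 -0.0363 in females, and GZMK -0.0550 and PRF1 -0.0205 without high pig 1 and low pig 2. Other probe sets gave 0.17 for GZMH, -0.27 for GZMM, -0.16 for PRF1 and -0.00128 for KLRK1, and by sex -0.20 for GZMM and -0.13 for KLRK1. EOMES by sex was 0.29 with a range term and in that range alone. With 1 pig left out, feed efficiency differences were -0.23 to 0.0413 for EOMES, -0.10 to 0.21 for GZMK, -0.0288 to 0.34 for KLRK1, -0.37 to 0.0184 for NKG7 and -0.10 to 0.26 for PRF1. The differences between the sexes were -0.24 to 0.34 for EOMES, -1.03 to 0.10 for GZMB, -0.71 to 0.10 for GZMH, -0.68 to 0.00601 for GZMK, -0.0533 to 0.15 for GZMM, -0.42 to 0.47 for NKG7 and -0.75 to 0.0438 for PRF1. With array weights that of EOMES was 0.0773, in range 301 to 310 that of GZMH was 0.30, and without high pig 1 and low pig 2 that of GZMM was -0.0523.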

Other observations

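Values of 5 further genes of lymphocytes by feed efficiency follow. GNLY, which encodes the antimicrobial granule protein granulysin, averaged 8.45 in high and 8.32 in low feed efficiency, a difference of 0.13 ± 0.42 (SE, n = 6 per group). The granule proteoglycan SRGN differed by -0.18 ± 0.23 and TBX21, the T-box factor T-bet, by -0.10 ± 0.23. The integrin ITGAE, which holds intraepithelial lymphocytes at E-cadherin, differed by -0.22 ± 0.38, and the chemokine CCL5 by -0.30 ± 0.33. Of the probe sets that passed the filter, 2 of 4 for CCL5 and 1 of 2 for GNLY had the sign given. The 5 genes were picked from the lists after their values were seen, and do not stand for the lists. The lists also hold larger differences without a call, such as 0.72 for the transcription factor BACH2 and -0.50 for the chemokine CXCL10.

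Once the means of feed efficiency and sex had been removed, KLRK1 had r between 0.44 and 0.73 with GZMA, GZMB, GZMH, PRF1 and NKG7, beside 0.11 to 0.35 without that step. EOMES and GZMA had r = -0.75 after it and -0.44 before it. In the 4 groups by sex, GZMA had its widest spread in high feed efficiency males, with 7.20 ± 1.31, against 8.24 ± 0.69 in high feed efficiency females, 8.21 ± 0.70 in low feed efficiency males and 8.43 ± 0.87 in low feed efficiency females (SD, n = 3 each).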
